A study of Mus musculus with 4 samples.

Results

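The 10 genes described here encode the cyclins, kinases and pocket protein of the G1 phase and the factor E2f1, and they were taken by name. They are the D-type cyclin genes Ccnd1, Ccnd2 and Ccnd3, their partner kinases Cdk4 and Cdk6, the E-type cyclin genes Ccne1 and Ccne2, their partner kinase Cdk2, the retinoblastoma gene Rb1 and E2f1. The members are all probe sets that the platform annotation gives to one of these symbols, 29 of the 45037 probe sets on the array that are no controls, and 10 of 18193 genes. In mouse bone marrow cultures flown in space, 0 of the 10 genes passed the test against ground cultures. Of all 11141 genes tested, 7 passed (0.0628%). Ccne2 had the highest difference of the 10, with 2.17-fold more signal in flight. Its flight values lay above both ground values, as they did for 23% of all genes tested. Rb1 lay slightly below its ground values on both flight arrays, and 22.5% of all genes tested had both flight values below. For Ccnd1, Ccnd2, Ccnd3 and Cdk6 the direction depended on which probe set was read. In Ccnd3 and Cdk6 opposing probe sets both reached the limit for dim signal used here, whereas in Ccnd1 and Ccnd2 the lower ones were dim on average.

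D-type cyclins are made when a growth factor signals, and they activate Cdk4 and Cdk6. The active kinases phosphorylate the Rb protein, which then lets go of E2F factors, and these switch on genes for DNA synthesis, the E-type cyclin genes and E2f1 itself among them. Cyclin E with Cdk2 completes the phosphorylation of Rb and starts S phase. In the macrophage lineage the growth factor is macrophage colony-stimulating factor (M-CSF), which induces D-type cyclins, and terminally differentiating macrophages leave this cycle.

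Both groups were cultures of one pool of marrow from 21 adult C57BL/6 mice, more than 8 weeks old. Red cells had been lysed and M-CSF added at 1.5 µg/ml. The space flight cultures grew in sealed glass barrels at 37 °C aboard a space shuttle, and the ground control cultures grew in parallel under the same temperature profile. Both received fresh medium on culture day 6 and were lysed in guanidinium after 15 days of culture, on day 14 of the flight. Each array held RNA of 2 pooled barrels, 2 arrays represent each group, and every sample's RNA integrity number was 3, which is low, per the labels. No genotype or treatment other than flight separates the groups, and the replicates are separate cultures of the same marrow, so no p-value here speaks to variation among animals.

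Values below are log2(intensity + 16) after quantile normalization, and a positive difference means more signal in flight than on the ground. A gene is represented by its brightest probe set, and genes whose mean over the 4 arrays reached 6.40, the median of all probe sets, were tested (11141 genes). All 10 members reached this limit, and each did so in the ground control mean as well. Of the 29 member probe sets, 19 reached it and 10 were dimmer. In limma's test over all genes 7 of 11141 passed an adjusted p of 0.05, which is 0.0628%, and 1582 genes (14.2%) had an unadjusted p under 0.05. For a single gene, an exact two-sided test with 2 arrays a group reaches 0.333 at the lowest. Over all 45037 probe sets tested together 0 passed (0%), and 3936 (8.74%) had an unadjusted p under 0.05. Both flight values lay above both ground values for 23% of tested genes and below both for 22.5%. For Gapdh, a control with probes at both ends of the transcript, 3' over 5' intensity came to 4.09 on flight array 1, 15.2 on flight array 2, and 4.13 and 3.33 on the ground arrays. For Actb, in the same order of arrays, it came to 3.08, 4.91, 2.30 and 2.84, and for the transferrin receptor to 5.50, 3.47, 4.96 and 7.84. Flight array 2 was thus highest by Gapdh and Actb and lowest by the transferrin receptor. In these bulk cultures, fewer cells of a type and less RNA per cell cannot be told apart.

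Of the 10 member genes, 8 had a difference above 0 and 2 below 0, where 5704 of the 11141 genes tested lay above 0. The median of the 10 differences was 0.32 beside 0.015 over all genes tested. Without flight array 1 it was 0.17 beside 0.027, and with each array shifted to 1 median it was 0.11 beside −0.16. With the mean of a gene's probe sets 8 members were tested, and 5 of them lay above 0. Both flight values lay above both ground values for 6 members (Ccnd1, Ccnd2, Cdk6, Ccne1, Ccne2 and E2f1), beside 23% of all genes, and below both for 1, Rb1, beside 22.5%. Only Ccne2 had an unadjusted p under 0.05, which is 1 of 10 beside 14.2% of all genes, or 6.88% in the higher direction. Limma adjusted p-values of the 10 ran from 0.217 to 0.990.

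**Figure D1:**
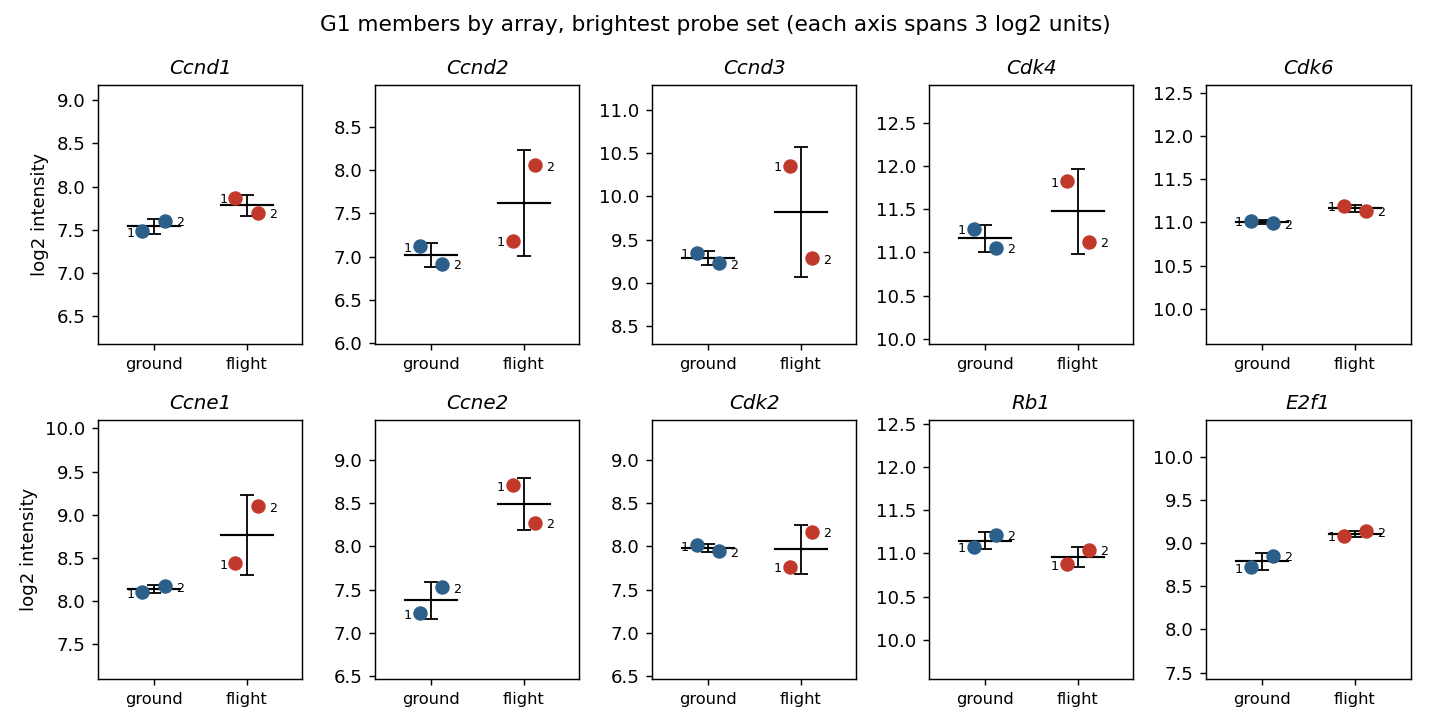
Log2 intensity of each of the 10 genes on its brightest probe set, by group; points are arrays (1 and 2 mark the replicate), lines are group means and bars are SDs of 2 arrays. Ccne2 shows the widest gap between groups, from 7.52 on the higher ground array to 8.27 on the lower flight array, while Ccnd3 and Cdk4 have 1 flight array close to the ground arrays.

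Among the D-type cyclins, Ccnd1 encodes the cyclin best known as a growth factor sensor. Its brightest probe set read 7.87 and 7.70 on flight arrays 1 and 2 and 7.48 and 7.60 on ground arrays 1 and 2. The flight arrays were the higher ones by a narrow margin, and the difference of 0.24 ± 0.39 (SE) did not pass (limma adjusted p = 0.818). A second probe set of Ccnd1, 1417419_at, went the other way, with 5.18 and 4.65 in flight against 6.92 and 7.27 on the ground. Its flight values lay below the dim limit and its ground values above, for a difference of −2.18 ± 0.64 (SE; limma adjusted p over all probe sets = 0.414). The third, 1417420_at, was dim in both group means and its groups overlapped, with a difference of −0.76 ± 0.76 (SE). All 3 probe sets carry the same transcript record in the annotation, and no probe positions were used here.

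Ccnd2, the D-type cyclin with the most probe sets on the array (7), stood higher in flight on its brightest probe set, with 7.18 and 8.05 in flight and 7.12 and 6.92 on the ground. Flight array 1 lay close to the ground arrays and flight array 2 stood apart, and the difference was 0.60 ± 0.46 (SE; limma adjusted p = 0.597). On probe set 1416122_at Ccnd2 read 7.20 and 8.40 in flight and 5.90 and 6.16 on the ground, a difference of 1.77 ± 0.62 (SE; limma adjusted p over all probe sets = 0.485). Both ground values of that probe set lay below the dim limit. The other probe sets that reached the limit, 1455956_x_at and 1448229_s_at, gave 1.04 ± 0.62 and 0.57 ± 0.62 (SE). On each of these 4 probe sets both flight values were above both ground values, and for 3 of the 4 the ground mean was dim, so they reached the limit only through flight. The 3 dimmer probe sets gave 0.79, −0.56 and −0.0020, with levels of 4.11 to 6.97 on any array.

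Ccnd3, the D-type cyclin abundant in many blood cells, read 10.35 and 9.28 in flight and 9.34 and 9.23 on the ground. Only flight array 1 stood high, flight array 2 lay between the ground arrays, and the difference was 0.53 ± 0.37 (SE; limma adjusted p = 0.555). Without flight array 1 the difference was −0.0018. Without flight array 2 it was 1.07 (limma adjusted p = 0.0392), in a fit where 3.07% of all genes passed as higher in flight. Probe set 1444323_at of Ccnd3 gave −0.24 ± 0.63 and 1438805_at, which was dim, gave 0.38 ± 0.62 (SE), both with overlapping groups.

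Cdk4, the kinase that D-type cyclins activate in most cell types, read 11.82 and 11.13 in flight and 11.27 and 11.05 on the ground. Like Ccnd3 it was high on flight array 1 alone, and the difference of 0.31 ± 0.28 (SE) did not pass (limma adjusted p = 0.657; 95% interval −0.31 to 0.94). Without flight array 1 it was −0.036, and without flight array 2 it was 0.66. The other probe sets of Cdk4 gave 0.18 ± 0.26 and 0.015 ± 0.31 (SE), also with overlapping groups. All 3 reached the dim limit.

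A window around the annotated start of Cdk4 is shown because it held more copies of the E-box CACGTG, the sequence that Myc with Max binds, than that of any other member found. RefSeq promoter windows (250 bases before and 50 after the start, build GRCm38.p6) were matched for 6 of the 10 genes, and Ccnd1, Ccnd2, Ccne2 and Rb1 had none. The letters CACGTG, which read the same on both strands, occurred 4 times in the window of Cdk4 and 1 time in that of Cdk6. In the table of 32851 windows 7.15% held at least 1 copy and 8 windows held at least 4. The part of the Cdk4 window from 10 bases before the first copy to 1 base before the start, at chr10:127063353-127063534 on the plus strand, has the copies in capitals.
Cdk4: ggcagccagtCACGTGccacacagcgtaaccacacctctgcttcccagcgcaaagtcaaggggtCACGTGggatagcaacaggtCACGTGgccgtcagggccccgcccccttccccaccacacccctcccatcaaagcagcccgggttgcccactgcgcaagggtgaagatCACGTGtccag
The copies began 172, 118, 98 and 11 bases before the start. Myc itself read 7.96 and 8.45 in flight and 8.75 and 8.59 on the ground, with both flight values the lower ones, and its difference of −0.47 did not pass (limma adjusted p = 0.585).

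Cdk6, the second kinase partner of D-type cyclins and prominent in blood progenitors, had a narrow spread on its brightest probe set, with 11.19 and 11.14 in flight and 11.02 and 10.99 on the ground. The flight arrays were both higher, but the difference was 0.16 ± 0.24 (SE; limma adjusted p = 0.808; 95% interval −0.38 to 0.69). Probe set 1435338_at of Cdk6, which also reached the limit on every array, read 9.31 and 9.92 in flight and 10.70 and 11.03 on the ground. Both flight values were well below both ground values, with a difference of −1.25 ± 0.29 (SE), the smallest adjusted p among the 29 member probe sets, yet not past the threshold (limma adjusted p over all probe sets = 0.360). It passed when the replicate number was added as a block (limma adjusted p = 0.0423), a fit in which 0.251% of all probe sets passed as lower; the labels do not say that the numbers pair the cultures. These 2 probe sets of Cdk6 are annotated with the same sequence record. The third, 1460291_at, was dim on all arrays (difference −0.046 ± 0.35, SE).

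**Figure D2:**
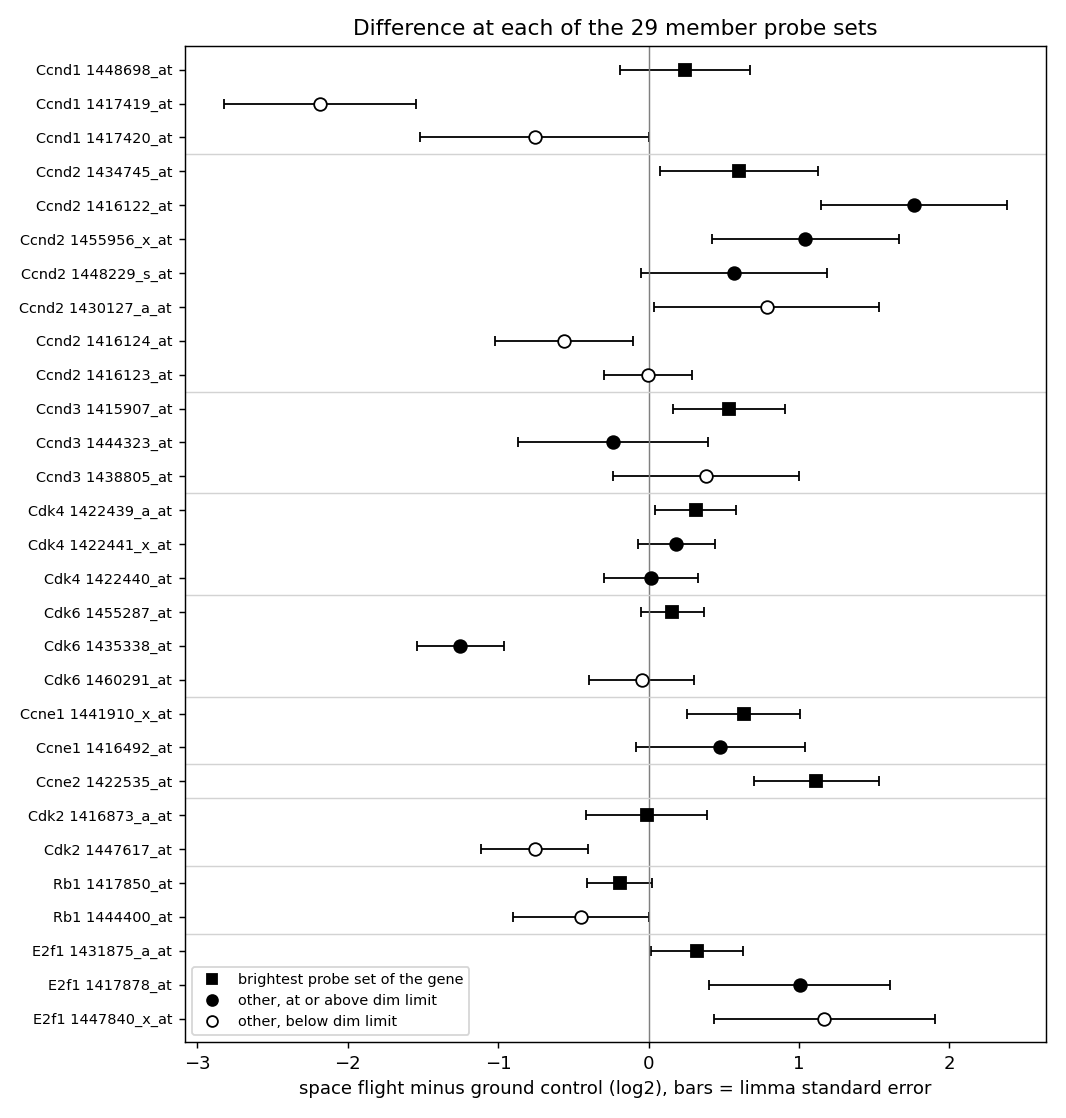
Difference between space flight and ground control at each of the 29 member probe sets on the log2 scale, with the limma standard error from the fit over all 45037 probe sets; squares are the brightest probe set of a gene, open circles are probe sets below the dim limit of 6.40. Probe sets of Ccnd1 and Cdk6 lie on both sides of 0, at −2.18 and 0.24 and at −1.25 and 0.16, whereas those of Ccne1 and E2f1 all lie above 0.

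Over the 29 probe sets, 18 differences were above 0 and 11 below, and 0 passed the threshold; 4 had an unadjusted p under 0.05 (2 higher, of Ccnd2 and Ccne2, and 2 lower, of Ccnd1 and Cdk6), beside 8.74% of all probe sets, 4.14% higher and 4.6% lower. Both flight values lay above both ground values for 10 of the 29, beside 19.1% of all probe sets, and below both for 5, beside 19.4%. Probe sets annotated to the same gene may read the same transcript, so the 29 cannot be taken as independent.

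The E-type cyclins act after the D-type ones and activate Cdk2. Ccne2 is represented by a single probe set, which read 8.71 and 8.27 in flight and 7.22 and 7.52 on the ground. In deposited intensities these were 405 and 293 in flight and 130 and 159 on the ground. Both flight arrays stood clear of both ground arrays. The difference was 1.12 ± 0.38 (SE; 95% interval 0.28 to 1.96) and did not pass after adjustment (limma adjusted p = 0.217). With each array left out in turn the difference of Ccne2 ran from 0.90 to 1.33, and it passed only without flight array 2 (limma adjusted p = 0.0422), in the fit where 3.07% of all genes passed as higher. The genes nearest to Ccne2 in pattern, by Euclidean distance over the 4 arrays of values centred on each gene's mean, were Mcm4 (0.028 log2 units), Col7a1 (0.046) and Slc35a2 (0.073).

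Ccne1, the other E-type cyclin, read 8.44 and 9.10 in flight and 8.10 and 8.17 on the ground. Both flight arrays were above the ground arrays, flight array 2 most, and the difference was 0.63 ± 0.36 (SE; limma adjusted p = 0.458). Without flight array 2 it was 0.30, and without flight array 1 it was 0.96 (both not past the threshold). The maker marks that probe set, by the x in its name, as one that may pick up unrelated transcripts, and the unmarked probe set of Ccne1 gave 0.48 ± 0.56 (SE) with overlapping groups.

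Cdk2, the kinase of cyclin E, read 7.76 and 8.17 in flight and 8.01 and 7.94 on the ground. The ground values lay between the flight values, and the difference was −0.013 ± 0.37 (SE; limma adjusted p = 0.990; 95% interval −0.83 to 0.81), an interval wide enough to hold the difference of Ccne1. The second probe set of Cdk2 was dim on all arrays and gave −0.76 ± 0.36 (SE). Cdk2 was the only one of the 6 matched genes whose window held one of the E2F letters TTTCCCGC, TTTCGCGC, TTTGCCGC or TTTGGCGC on either strand, which 2.26% of the 32851 windows held. It lies on the strand opposite to the gene, 140 bases before the start, and is in capitals in the stretch at chr10:128705174-128705201, printed along the minus strand on which Cdk2 runs.
Cdk2: accaggaactGCGGGAAAgttgtgcagc

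Rb1, the protein that G1 kinases inactivate, read 10.88 and 11.04 in flight and 11.08 and 11.22 on the ground. Both flight values were the lower ones, by a small margin, with a difference of −0.19 ± 0.25 (SE; limma adjusted p = 0.769; 95% interval −0.74 to 0.36). Its second probe set was dim, with a difference of −0.45 ± 0.45 (SE). Under other choices of pseudocount, array scaling or probe set the difference of Rb1 ran from −0.43 to −0.18. The dim filter, intensity trend and replicate block could not change this estimate. Leaving out 1 array could not change its sign, because the groups did not overlap.

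E2f1, the activating E2F factor and itself an E2F target, read 9.09 and 9.13 in flight and 8.72 and 8.85 on the ground. The replicates were close and the groups did not overlap, but the difference was 0.32 ± 0.31 (SE; limma adjusted p = 0.676). A second probe set of E2f1, 1417878_at, gave 9.73 and 7.91 in flight and 8.24 and 7.39 on the ground, with flight array 1 high, flight array 2 within the ground range and a difference of 1.00 ± 0.60 (SE). The third, 1447840_x_at, carries the x mark described for Ccne1. It was dim on average and gave 1.17 ± 0.74 (SE). All 3 probe sets of E2f1 lay above 0, with estimates that ranged from 0.32 to 1.17.

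**Figure D3:**
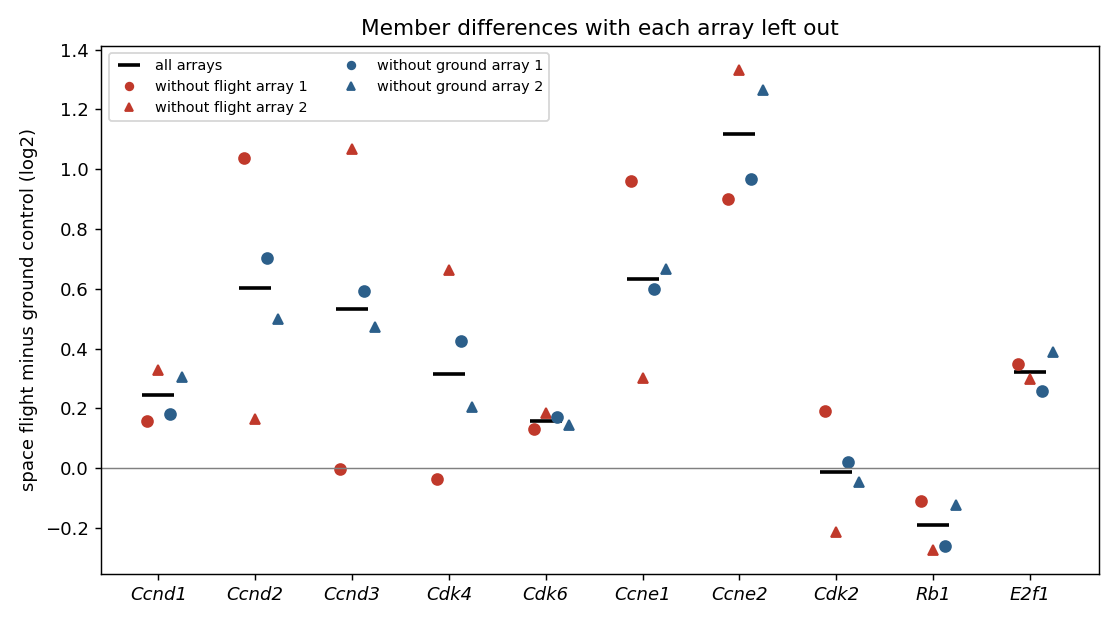
Difference between space flight and ground control for each gene on the log2 scale with all arrays (black bars) and with 1 flight array (red) or 1 ground array (blue) left out. The differences of Ccnd3 and Cdk4 fall to −0.0018 and −0.036 without flight array 1, and that of Ccne2 stays between 0.90 and 1.33.

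The 2 flight arrays thus differed for several members. On their brightest probe sets, Ccnd3 and Cdk4 were higher on flight array 1, and Ccnd2 and Ccne1 were higher on flight array 2. On flight array 2 the Gapdh ratio was 15.2 and that of the transferrin receptor 3.47. Without flight array 2 the difference of Ccnd2 was 0.17, and without flight array 1 it was 1.04. Unlike the other Ccnd2 probe sets that reached the dim limit, 1448229_s_at was higher on flight array 1 (7.17) than on flight array 2 (6.52). The part of RNA quality in these values was not tested. With any 1 of the 4 arrays left out, Ccnd1 ran from 0.16 to 0.33 and Cdk6 from 0.13 to 0.19. Rb1 ran from −0.27 to −0.11 and E2f1 from 0.26 to 0.39. The signs of these 4, and of Ccnd2, Ccne1 and Ccne2, could not change there, because their groups did not overlap. Their kept signs therefore add nothing to that separation. The signs of Cdk2, Ccnd3 and Cdk4, whose groups overlapped, did change.

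Other genes of the pathway were read from lists chosen by role. In none of the 6 lists did a gene pass limma's threshold; genes at an unadjusted p under 0.05 are counted with each list, beside 6.88% of all genes higher and 7.32% lower. The list of relatives and partners of Rb1 and E2f1 had a median of −0.26 over 10 measured genes of 11, with 1 of them, E2f6, at an unadjusted p under 0.05. Without flight array 2 this median was 0.015. E2f6, a repressing E2F, read 10.10 and 9.65 in flight and 10.55 and 10.88 on the ground (difference −0.84 ± 0.29, SE; limma adjusted p = 0.228). Tfdp1, the usual DNA-binding partner of E2F factors, stood at −0.074 ± 0.29 (SE) with overlapping groups.

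The inhibitors of these kinases stood highest of the 6 lists, with a median of 0.70 over 6 measured genes of 7, 2 of them higher and 1 lower at an unadjusted p under 0.05. Without flight array 1 the median was 0.33, below those of the E2F target and mitotic lists. Cdkn1a, which encodes p21, read 14.20 and 13.73 in flight and 12.32 and 12.86 on the ground, a difference of 1.37 ± 0.23 (SE) that did not pass (limma adjusted p = 0.0568). Cdkn1b, which encodes p27 and was singled out after its values were seen, stood at 0.94 ± 0.31 (SE), with both flight values above both ground values. Cdkn1c, which encodes p57, stood at −0.44 ± 0.14 (SE; limma adjusted p = 0.188) with both flight values below. The inhibitors Cdkn1a and Cdkn1c thus lay in opposite directions.

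Genes that E2F factors are known to switch on at G1/S had a median of 0.39 over 19 measured genes of 25, and 5 of the 19 were at an unadjusted p under 0.05, all higher in flight. Without flight array 2 the median was 0.24. These 5, named after their values were seen, were the helicase genes Mcm4, Mcm5 and Mcm7, the nucleotide enzyme gene Rrm2 and Slbp. Slbp encodes a protein that binds histone mRNA. Mcm4, Mcm5 and Rrm2 were read on probe sets with the x mark described for Ccne1. Mcm7 read 11.53 and 10.92 in flight and 9.24 and 10.30 on the ground (1.45 ± 0.37, SE; limma adjusted p = 0.126). Pcna, the sliding clamp of replication, stood at 0.076 ± 0.18 and the licensing gene Cdt1 at −0.32 ± 0.21 (SE). Of 12 mitotic genes 5 were measured, with a median of 0.28 that ran from 0.014 without flight array 2 to 1.09 without flight array 1, and 1 was at an unadjusted p under 0.05. This was Cdc20, the activator of the anaphase ligase, at 1.29 ± 0.36 (SE; limma adjusted p = 0.147), read on a probe set with the x mark. The proliferation marker Mki67 stood at 0.70 ± 0.44 (SE), with 9.71 on flight array 2 and 8.28 to 8.37 on the other arrays.

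Genes that control the activity of the kinases, in either direction, or the breakdown of the cyclins had a median of −0.051 over 14 measured genes of 15. Of these, 1 was higher and 2 were lower at an unadjusted p under 0.05. Without ground array 2 the median was 0.057. Skp1 and Cul1, the adaptor and scaffold of the ligase that degrades cyclin E, stood at 0.52 ± 0.21 and −0.80 ± 0.28 (SE; limma adjusted p = 0.299 and 0.236), and Ccnh, the cyclin of the kinase that activates these kinases, at 0.12 ± 0.24 (SE). Upstream of cyclin D, the median was −0.41 over 7 measured genes of 9, with 2 lower at an unadjusted p under 0.05, and −0.25 without flight array 2. The M-CSF receptor gene Csf1r stood at −0.37 ± 0.11 and Ctnnb1, which encodes beta-catenin, at −0.42 ± 0.14 (SE; limma adjusted p = 0.181 and 0.216), both with flight values below ground values.

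**Figure D4:**
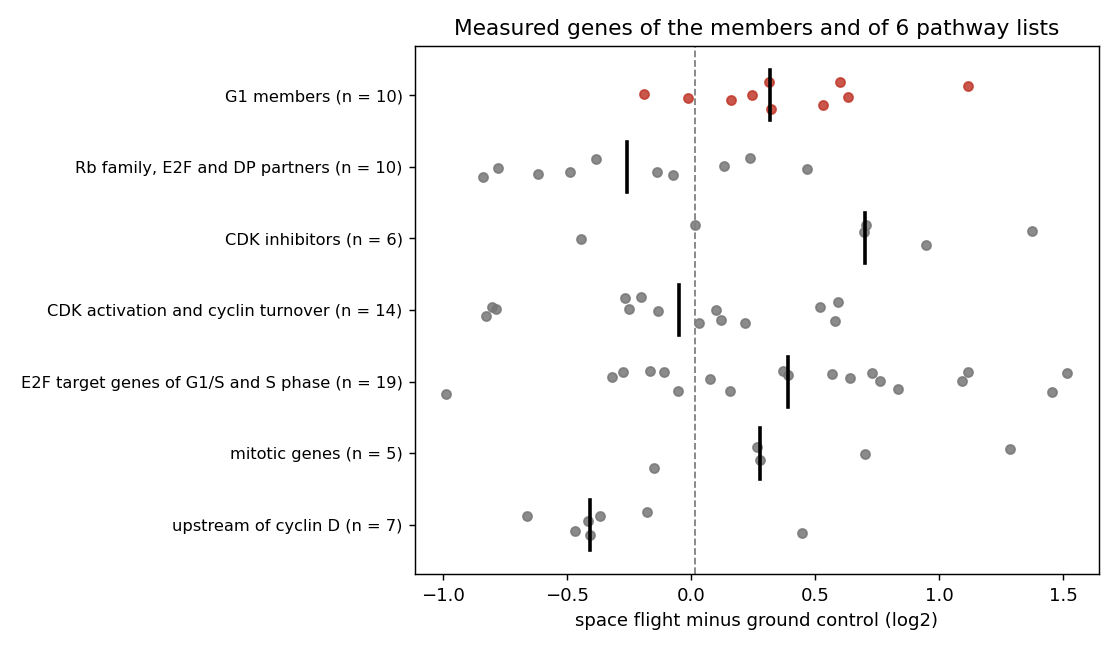
Difference between space flight and ground control of the measured genes among the 10 members (red) and in 6 pathway lists (grey) on the log2 scale; black bars are medians and the dashed line is the median of all 11141 genes tested, 0.015. The members have a median of 0.32, the inhibitors of 0.70 and the genes upstream of cyclin D of −0.41.

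Markers of the cell types that such a culture can hold were also read, and no deposited value was 0. Of the lists given here, only that of neutrophils had genes past the threshold. Of the 12 macrophage markers 11 were measured (C1qa was dim). Sums of normalized intensity given here take in every marker of a list on the array, dim ones included. For the macrophage markers the sum was 108001 to 115821 in flight and 131469 to 135033 on the ground. The brightest of them, Lyz2 and Csf1r, stood at −0.061 ± 0.11 and −0.37 ± 0.11 (SE). Of the 11, 5 lay above 0 and 6 below. Both flight values were below both ground values for 6 of them, beside 22.5% of all genes. They were above both ground values for 2, C1qb at 1.42 and Fcgr1 at 1.02, beside 23%. The ground mean of Fcgr1, 6.07, was below the dim limit, so Fcgr1 reached the limit only through flight. Of the 14 neutrophil markers 13 were measured, 2 (Camp and Ngp) passed the test, beside 0.0628% of all genes, and 11 had both flight values above both ground values, beside 23%. Mmp8 was the 1 marker with both flight values below, at −0.64. Their summed intensity was 86903 to 115067 in flight and 49837 to 52390 on the ground, and the brightest, S100a8 and S100a9, stood at 0.79 ± 0.12 and 1.36 ± 0.27 (SE). Of 11 erythroid markers 8 were measured, with sums of 12999 to 16460 in flight and 7608 to 9111 on the ground, and the brightest, Tfrc and Slc4a1, stood at −0.14 ± 0.24 and 2.17 ± 0.43 (SE). Of the 8, 5 lay above 0 and 3 below. Slc4a1, like C1qb, was read on a probe set with the x mark. Of the 6 osteoclast markers 4 were measured. Sums over all 6 were 8774 to 9255 in flight and 16692 to 19909 on the ground. The brightest, Ctsk and Atp6v0d2, stood at −1.02 ± 0.20 and −1.15 ± 0.22 (SE). Of the 4, 3 lay below 0 and 1 above, Acp5 at 0.73, with both flight values above both ground values. B cell and T cell markers were mostly dim. Below the limit were 5 of the 7 B cell genes with a single-gene probe set, Pax5 and Ms4a1 among them. So were 5 of the 6 such T and NK cell genes, Cd3d, Cd3e and Cd3g among them. These lists of 8 genes each also hold genes without such a probe set. The part of these cells in the member values was not tested.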

How the data were processed

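The deposited table holds 1 linear intensity per probe set and array, made by the authors with GCOS per the submitters' processing notes; no algorithm or version is stated there. With the top and bottom 2% removed, the 4 arrays shared a mean of 500.004, so each had been scaled. The deposited intensities were raised by 16 and converted to log2 in R 4.3.3. Array medians differed by up to 0.385, above the tolerance of 0.1, so quantile normalization was applied, leaving out 64 controls. Folds on this scale understate changes of dim genes. Of 45037 probe sets, 34945 had 1 gene symbol, 932 several and 9160 none here; 0 with several held a member.

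Groups were compared with limma 3.58.1 (lmFit, eBayes with an intensity trend, two-sided, Benjamini-Hochberg adjustment), once over 11141 genes (brightest probe set, mean of at least 6.40) and once over all 45037 probe sets. Standard errors of brightest probe sets come from the first, those of others from the second. The fits had 2 residual degrees of freedom, 10.4 and 8.55 after moderation. The number of arrays limits precision. The procedure was tested on simulated data. Named were all members; of each pathway list the 2 brightest genes and the one with the largest moderated statistic; the neighbours of the member with the largest statistic; the 2 brightest genes of the cell type lists with a sum given; and control probe sets. Members and lists were chosen with earlier results of these data known.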

Additional observations from a re-analysis of the deposited data

How the results depend on the processing

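Alternatives covered the pseudocount, array scaling, dim filter, probe set choice, intensity trend, replicate block and each array left out. The count of member genes past the threshold was 0 under each except when 1 array was left out, where it ran from 0 to 2 (Ccnd3 at 1.07 and Ccne2 at 1.33 without flight array 2). For member probe sets it was 0 except with the replicate block, where it was 1 (Cdk6 1435338_at at −1.25, adjusted p = 0.0423). The replicate numbers do not pair the arrays by the labels, and deviations of same-numbered arrays from their group means correlated at 0.0572. Over all genes, 7 passed in the reported fit, 433 with the replicate block, 12 with a pseudocount of 64, 16 with values as deposited, 21 with cyclic loess, 28 with the limit at the 75th percentile, 0 with a shift to 1 median, 0 without a dim filter, 0 with the mean of a gene's probe sets, 0 without an intensity trend, and 7 to 1080 with 1 array left out. The cause of these changes was not tested.

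A shift to 1 median moved the median of all genes to −0.16; there Cdk6 stood at −0.081 (the same on 1455287_at) and Cdk4 at −0.062 on 1422441_x_at, above that median, and at −0.23 on 1422440_at, below it. With the mean of all probe sets Ccnd1 stood at −0.90 and Cdk6 at −0.38. With values as deposited Cdk2 stood at 0.011 (the same on 1416873_a_at), Cdk4 1422440_at at −0.030, Cdk6 1460291_at at 0.043 and Ccnd2 1416123_at at 0.077, the last also at 0.13 with a pseudocount of 1. Signs that changed with 1 array left out were those of Ccnd3 (−0.0018 to 1.07, on 1415907_at too), Cdk4 (−0.036 to 0.66, on 1422439_a_at too), Cdk2 (−0.21 to 0.19, on 1416873_a_at too), and, by probe set, Cdk4 1422440_at (−0.39 to 0.42) and 1422441_x_at (−0.12 to 0.49), Ccnd2 1416123_at (−0.16 to 0.15), Ccnd3 1438805_at (−0.15 to 0.92) and 1444323_at (−0.74 to 0.27), Cdk6 1460291_at (−0.24 to 0.15), Ccne1 1416492_at (−0.051 to 1.00) and Rb1 1444400_at (−1.00 to 0.11). A group reduced to 1 array borrows its spread from the remaining group.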
